A study of Mus musculus with 2 samples.

Results

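The genes described here are 10 genes of ceramide and sphingomyelin metabolism in mouse liver: the serine palmitoyltransferase subunits *Sptlc1* and *Sptlc2*, the ceramide synthases *Cers2*, *Cers4*, *Cers5* and *Cers6*, the dihydroceramide desaturases *Degs1* and *Degs2*, and the sphingomyelinases *Smpd1* and *Smpd3*. They were found by symbol in the deposited transcript table, and the estimated counts of each gene's transcripts were summed, which gave all 10 among the 45777 genes of the table. Both groups were C57BL/6 mice, given as C57BL/6 N in the paper, on a high-fat diet (HFD). The study's methods give an age of 7 weeks at the start of a diet of 18 weeks and an adeno-associated virus (AAV) given retro-orbitally at week 13, so that livers were taken 5 weeks later. One group received AAV-GFP, which expresses green fluorescent protein, and the other AAV-Wee1-AS, which expresses a long noncoding RNA transcribed antisense to the *Wee1* locus. The vector described for this experiment carried the CMV promoter, which is not restricted to hepatocytes. The sex of the mice and whether a library pooled several animals were not given for these libraries, and the transcript *Wee1-AS* itself was not analysed here. There was 1 liver RNA-seq library per group, so no difference below has a replicate check, no test of the treatment was possible, and each interval covers counting error only and compares the libraries, not the conditions.

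Sphingolipids are built on a long-chain base. Serine palmitoyltransferase joins serine and palmitoyl-CoA in the step that commits both to the pathway, ceramide synthases attach a fatty acid of a chain length that each enzyme prefers, and a dihydroceramide desaturase then makes ceramide, from which sphingomyelin and glycosphingolipids are formed. Sphingomyelinases run the sphingomyelin branch backwards and release ceramide. In the liver, very-long-chain ceramides made by *Cers2* are the prevailing species, and ceramides with a palmitoyl chain, which *Cers5* and *Cers6* make, have been linked to insulin resistance and steatosis in obese mice.

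The libraries held 55466182 (AAV-GFP) and 48079335 (AAV-Wee1-AS) estimated counts. Of all genes, 15857 had at least 10 counts in at least 1 library, and their median log2 ratio of AAV-Wee1-AS over AAV-GFP was -0.02, with the middle 95% between -1.82 and 2.52. The log2 ratio varied with the GC content of the transcript: the median was 1.43 in the lowest decile of GC content and -0.69 in the highest. Summed hepatocyte markers were at 76375 and 85360 TPM (a transcript level corrected for length and depth) with AAV-GFP and AAV-Wee1-AS, and the Kupffer cell and macrophage list was at 220 and 211. The stellate list was at 119 and 129, the endothelial list at 146 and 119, the cholangiocyte list at 44.1 and 37.9, the T and B cell list at 3.78 and 3.07, the neutrophil list at 12.2 and 6.27, and the erythroid list at 2037 and 1100. Genes went both ways in every list but the neutrophil and erythroid ones. Of the hepatocyte list 3 were above 0 and 3 below, with *Cps1* at a log2 ratio of 1.21 and *Alb*, the largest part of the sum, at 0.53 but *Ttr* at -0.62 and *Apoa1* at -0.26. Of the macrophage list 4 were above 0 and 3 below, with *Marco* at a log2 ratio of 1.60, *Vsig4* at 1.52 and *Timd4* at 1.40 but *Cd68* at -0.88. Of the stellate list 4 were above 0 and 3 below, with *Rgs5* at 1.58 and *Lrat* at 1.46 but *Col1a1* at -2.32 and *Pdgfrb* at -1.09. The split was 2 above and 4 below in the endothelial and the T and B cell lists and 2 above and 3 below in the cholangiocyte list. All 3 tested neutrophil genes and all 3 erythroid genes were below 0. *Ly6g* was at 0 in both libraries, and *Ms4a1* was at 0 with AAV-GFP. In bulk tissue, fewer cells of a type and less RNA per cell cannot be told apart, and the part of cell composition or GC content in the values below was not tested.

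Of the 10 genes, 9 passed the count minimum, and *Degs2* did not. Of the 9, *Cers6* exceeded a 2-fold ratio in favour of the AAV-Wee1-AS library and *Smpd3* exceeded it in favour of the AAV-GFP library, 1 gene (11.1%) each way. Among all genes tested, 22.2% were past 2-fold higher, 8.71% past 2-fold lower and 31.0% past it in either direction, so the 9 genes do not stand out from the background in their number of calls. Only *Smpd3* had an interval entirely beyond 2-fold, as did 19.8% of all genes. The log2 ratio was above 0 for 3 genes and below 0 for 6, with a median of -0.27, compared with -0.02 for all genes. The 10 genes together were at 534 TPM with AAV-GFP and 413 TPM with AAV-Wee1-AS, a sum that was 22.8% lower. *Cers2*, at 337 and 270 TPM, was the largest part of that sum, while *Sptlc2*, *Cers4* and *Cers6* were higher in TPM with AAV-Wee1-AS.

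**Figure D1:**
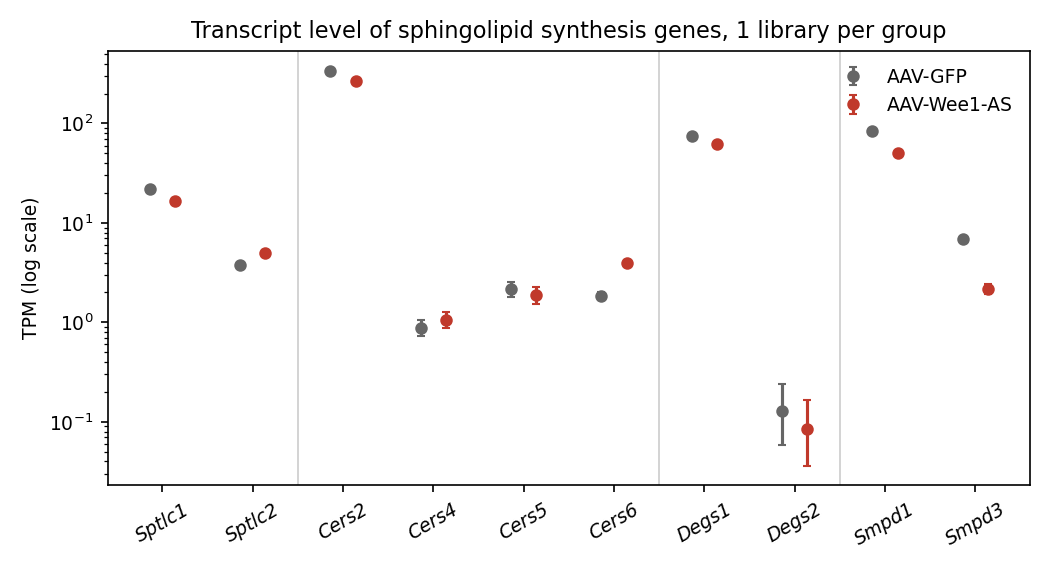
Level of each of the 10 genes in TPM on a log axis, by enzyme step, with 1 point per library (AAV-GFP and AAV-Wee1-AS) and bars for the exact Poisson 95% interval of the count. *Cers2* stands highest in both libraries, at 337 and 270 TPM, and *Degs2* lowest, at 0.128 and 0.0840 TPM.

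**Figure D2:**
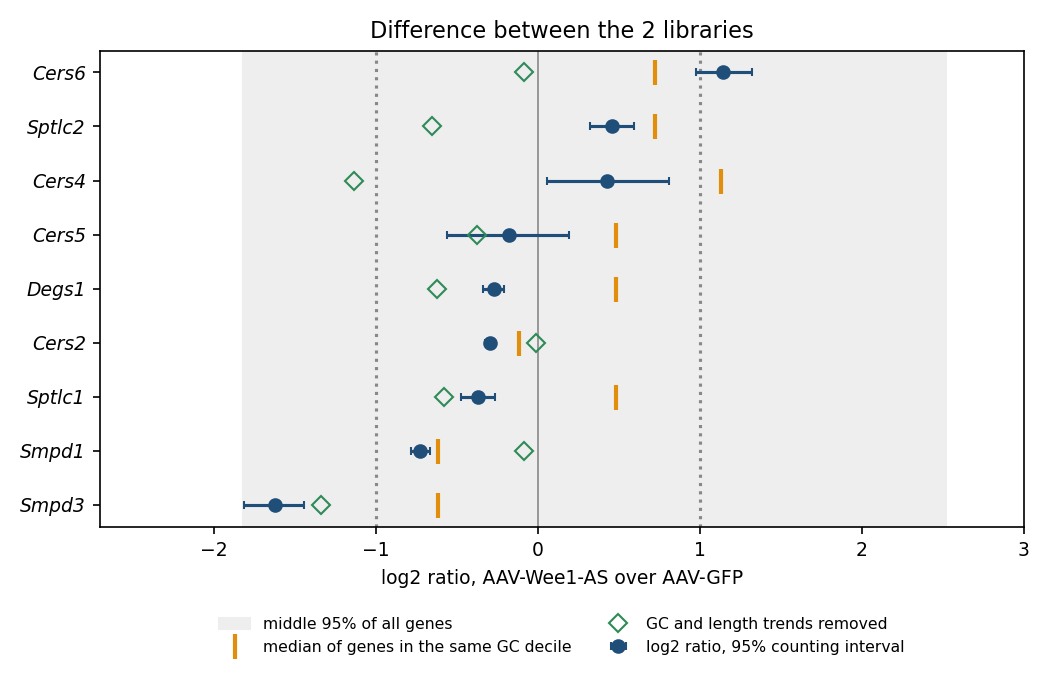
Log2 ratio of AAV-Wee1-AS over AAV-GFP for the 9 tested genes, with the exact 95% counting interval, the middle 95% of all genes in grey, the median of genes in the same decile of GC content as an orange bar and the ratio after removal of the GC and length trends as an open diamond. *Cers6*, at 1.14, and *Smpd3*, at -1.62, lie past the dotted 2-fold lines, and with both trends removed all 9 lie below 0, *Cers2*, *Smpd1* and *Cers6* close to it. The median of all genes is then -5.24e-05, and the open diamonds carry no counting interval.

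The subunits of serine palmitoyltransferase stood apart in direction, though both were below 0 once the trend of the ratio with GC content was removed, *Sptlc1* at -0.73 and *Sptlc2* at -0.28. *Sptlc1* (chr13:53332748-53377417, build mm10), which encodes the subunit common to every form of the enzyme, had 1866 counts (22.1 TPM) with AAV-GFP and 1204 counts (16.8 TPM) with AAV-Wee1-AS. It was lower with AAV-Wee1-AS, with a log2 ratio of -0.37 (95% counting interval -0.47 to -0.26). *Sptlc2* (chr12:87305058-87388355), which encodes a catalytic subunit that pairs with the *Sptlc1* product, had 826 counts (3.74 TPM) and 945 counts (5.04 TPM), a log2 ratio of 0.46 (0.32 to 0.59). The intervals of the pair do not overlap, and neither gene was past 2-fold. The level of *Sptlc1* was 5.91 times that of *Sptlc2* with AAV-GFP and 3.33 times with AAV-Wee1-AS, on the TPM scale, which corrects for length. Nearly all *Sptlc1* counts, 1860 and 1151, were assigned to the transcript NM_009269. A non-coding variant, XR_382233, had 0 counts with AAV-GFP and 50 with AAV-Wee1-AS. *Sptlc2* had a single transcript in the table, NM_011479.

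Genes that hold or restrain this enzyme were above and below 0 in the fixed list of SPT subunits and regulators. Of 7 listed genes, 6 were tested, 2 (33.3%) were past 2-fold higher, against 22.2% of all genes, and 0 past 2-fold lower, and the median log2 ratio was 0.45, or -0.11 with the GC trend removed. *Sptssa*, which encodes a small subunit that stimulates the enzyme, had 419 counts with AAV-GFP and 904 with AAV-Wee1-AS (log2 ratio 1.37, 1.20 to 1.54). *Ormdl1*, one of the ORMDL inhibitors of the enzyme, had 338 and 964 counts (1.77, 1.60 to 1.96). *Ormdl3*, the most abundant ORMDL transcript at 115 and 83.1 TPM, went the other way, with 7684 and 4695 counts and a log2 ratio of -0.45 (-0.50 to -0.39). *Sptssa* and *Ormdl1* lie in the lowest GC decile, whose median over all genes was 1.43, and with the GC trend removed they were at 0.06 and 0.40, and *Ormdl3* at 0.14.

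Among the ceramide synthases, nearly all of the RNA was *Cers2*, the synthase of very-long-chain ceramides. It made up 98.6% of the TPM of the 4 genes with AAV-GFP and 97.5% with AAV-Wee1-AS. *Cers2* (chr3:95314771-95323599) had 23216 counts (337 TPM) and 15747 counts (270 TPM), and the log2 ratio was -0.30 (-0.33 to -0.27), or 1.23-fold lower. It overlaps *Anxa9*, with 76 and 55 counts, and *Setdb1*, with 582 and 718, both small beside its own. *Cers6* (chr2:68861145-69114284), a synthase of palmitoyl ceramides, had 429 counts (1.84 TPM) and 792 counts (3.99 TPM). This was 2.21-fold higher with AAV-Wee1-AS, a log2 ratio of 1.14 whose interval (0.98 to 1.32) reached just under 2-fold. The log2 ratio was 0.94 under upper quartile scaling, 0.32 with the GC trend removed and -0.09 with GC and length trends removed. It was 0.63 on FPKM with a pseudocount of 1, which draws the ratios of low levels, here 0.940 and 2.01 FPKM, toward 0. The level of *Cers2* was 183 times that of *Cers6* with AAV-GFP and 67.5 times with AAV-Wee1-AS, and the share of *Cers6* among the 4 synthases went from 0.538% to 1.44% of their TPM.

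The other synthases were low in both libraries. *Cers5* (chr15:99735592-99772515), which like *Cers6* makes palmitoyl ceramides, had 143 counts (2.15 TPM) with AAV-GFP and 105 counts (1.87 TPM) with AAV-Wee1-AS. The log2 ratio of its single transcript, NM_028015, was -0.18 with an interval from -0.56 to 0.19, so no difference was detectable at this depth. *Cers4* (chr8:4492818-4529603), a synthase for long and very long acyl chains, had 113 counts (0.876 TPM) and 127 counts (1.06 TPM), a log2 ratio of 0.43 (0.06 to 0.81). That interval included 0, at -0.11 to 0.97, when each count was halved, as would apply if both mates of a read pair had been counted. The sign of *Cers4* turned with the GC trend removed (-0.58) and with GC and length trends removed (-1.13). Both trends were taken at its longest transcript, of 9475 bases. NM_026058, of 3668 bases, held 88.5% and 74.0% of its counts, so these 2 values rest on another transcript form. *Cers5* and *Cers6*, which share a product, did not differ beyond their intervals with AAV-GFP, at 1.81 to 2.53 and 1.67 to 2.02 TPM. With AAV-Wee1-AS they stood apart, at 1.53 to 2.27 and 3.72 to 4.28 TPM. The remaining synthases *Cers1* and *Cers3* had 0 counts in both libraries, and *Fa2h*, a fatty acid hydroxylase that supplies hydroxylated ceramides, had 9 counts with AAV-GFP and 0 with AAV-Wee1-AS.

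*Cers2* is transcribed from start sites 3640 bases apart in the RefSeq promoter table, and its counts divided between them. The promoters of *Cers2* are shown because the libraries divided its counts differently among its transcripts, and that of *Cers6* because it was the only one of the 10 genes past 2-fold higher. Each is the sense strand in RefSeq on GRCm38.p6, 250 bases before to 50 after the start, 5′ to 3′, with CpG dinucleotides in capitals. The upstream *Cers2* promoter lies at chr3:95314940-95315239 on the plus strand, the internal one at chr3:95318580-95318879 on the plus strand, and that of *Cers6* at chr2:68861191-68861490 on the plus strand.
Cers2 upstream: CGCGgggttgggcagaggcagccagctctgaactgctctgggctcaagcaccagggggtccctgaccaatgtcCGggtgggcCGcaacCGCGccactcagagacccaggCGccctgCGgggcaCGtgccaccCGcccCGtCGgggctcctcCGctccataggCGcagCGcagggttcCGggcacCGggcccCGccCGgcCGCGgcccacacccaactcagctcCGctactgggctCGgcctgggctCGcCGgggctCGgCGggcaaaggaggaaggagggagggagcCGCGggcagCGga
Cers2 internal: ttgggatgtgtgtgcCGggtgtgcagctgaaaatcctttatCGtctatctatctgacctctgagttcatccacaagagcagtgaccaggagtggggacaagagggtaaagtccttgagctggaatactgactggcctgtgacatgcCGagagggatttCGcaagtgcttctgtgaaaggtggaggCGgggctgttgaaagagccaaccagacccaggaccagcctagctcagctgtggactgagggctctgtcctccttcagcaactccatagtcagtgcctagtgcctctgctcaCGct
Cers6: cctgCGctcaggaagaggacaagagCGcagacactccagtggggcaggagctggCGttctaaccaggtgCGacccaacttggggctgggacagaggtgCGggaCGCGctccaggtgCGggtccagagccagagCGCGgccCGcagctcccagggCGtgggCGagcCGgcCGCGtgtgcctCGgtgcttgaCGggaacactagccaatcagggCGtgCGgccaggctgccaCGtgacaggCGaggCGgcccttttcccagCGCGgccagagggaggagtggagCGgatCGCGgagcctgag
The upstream *Cers2* promoter had 75% GC and 30 CpG, the internal one 54.3% GC and 6 CpG, and that of *Cers6* 70.0% GC and 28 CpG. Over all 32851 promoters of the table the medians were 52.7% GC and 7 CpG. Promoters were listed for 9 of the 10 genes, 10 promoters in all, and 9 of the 10 had at least 14 CpG, the internal *Cers2* promoter being the exception. Exact matches were counted for TATAAA and CCAAT on both strands and for CACGTG, which reads the same on both strands, each motif on its own whether or not its matches overlap another's. TATAAA was in none of the 10 and in 13.6% of all promoters. The upstream *Cers2* promoter and that of *Cers6* each held 1 CCAAT, a motif in 37.4% of all promoters, and 1 CACGTG, the E-box letters, which occur in 7.15% of all. The internal *Cers2* promoter held none of them. *Degs1* was the other gene with CACGTG, so 3 of the 9 had it.

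The *Cers2* transcripts differed in ratio among themselves. Transcript counts are estimates that divide reads among the transcripts of a gene. The intervals given for them here leave out the error of that division, which was not tested. NM_029789, which starts at the upstream promoter, had 11849 counts with AAV-GFP and 6603 with AAV-Wee1-AS, a log2 ratio of -0.58 (-0.62 to -0.54). NM_001320492, which starts at the internal one, had 10677 and 7436 counts (-0.26, -0.30 to -0.22). A predicted transcript, XM_030252878, was instead higher, with 286 and 1420 counts (2.57, 2.39 to 2.76), and its share of the gene went from 1.23% (exact binomial 95% interval 1.09 to 1.38) to 9.02% (8.57 to 9.48). The 3 transcripts that start upstream of the internal promoter had, in sum, 12539 and 8311 counts, 54.0% and 52.8% of the gene, with a joint log2 ratio of -0.33 (-0.37 to -0.29). The division between upstream and internal starts thus differed by little, and the larger difference was among the upstream transcripts. For *Cers6*, the coding transcript NM_172856 had 374 and 635 counts (log2 ratio 1.02, 0.84 to 1.22) and the non-coding XR_374464 had 55 and 157 (1.74, 1.33 to 2.25), so both were higher with AAV-Wee1-AS. *Cers4* was mostly NM_026058, with 100 and 94 counts (0.17, -0.25 to 0.60), while XM_030243733 had 13 and 33 (1.46, 0.64 to 2.66). The coding *Cers4* transcript of the curated set was therefore near 0 in log2 ratio. The higher total of the gene, which turned lower with the GC trend removed (-0.58), came with the predicted one.

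**Figure D3:**
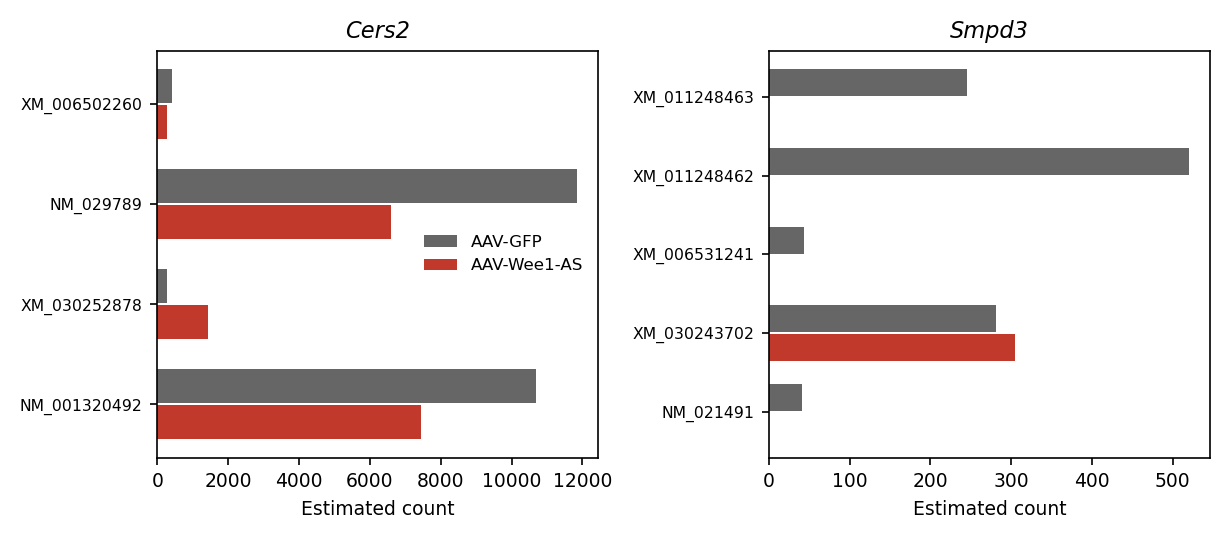
Estimated counts assigned to each transcript of *Cers2* and *Smpd3* in the AAV-GFP and AAV-Wee1-AS libraries, 1 bar per library. Of the 5 *Smpd3* transcripts, 4 are at 0 with AAV-Wee1-AS, and XM_030243702 has 281 and 305 counts.

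The desaturase step rested on *Degs1* (chr1:182275964-182282854), which encodes the enzyme that turns dihydroceramide into ceramide. It had 4619 counts (75.6 TPM) with AAV-GFP and 3187 counts (61.6 TPM) with AAV-Wee1-AS. The level was lower with AAV-Wee1-AS, at a log2 ratio of -0.27 (-0.34 to -0.21). Its main transcript NM_007853 held 98.8% and 99.1% of the counts. *Degs2* (chr12:108686792-108702306), whose product can also hydroxylate dihydroceramide to phytoceramide, had 9 counts (0.128 TPM) and 8 counts (0.0840 TPM), too few for a comparison. Its counts were 5 and 8 for NM_001171002 and 4 and 0 for NM_027299, and *Degs1* held 99.8% and 99.9% of the TPM of the pair. *Degs2* overlaps *Evl*, which had 497 and 166 counts, and the strand setting of the authors' counting was not given in the sources used here.

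Both sphingomyelinases were lower with AAV-Wee1-AS, *Smpd3* by more than *Smpd1*. *Smpd1* (chr7:105554360-105558389), the acid sphingomyelinase of the lysosome, which is deficient in Niemann-Pick disease, had 6720 counts (84.6 TPM) and 3386 counts (50.3 TPM). It was 1.65-fold lower, in its single transcript NM_011421, with a log2 ratio of -0.72 (-0.79 to -0.67). With the GC trend removed *Smpd1* was at -0.18, and with GC and length trends removed at -0.08. *Smpd3* (chr8:106252548-106337965), the neutral sphingomyelinase that acts at the plasma membrane and Golgi and takes part in exosome release, had 1130 counts (6.82 TPM) and 305 counts (2.17 TPM). It was 3.07-fold lower, with a log2 ratio of -1.62 (-1.81 to -1.44), and with each count halved the interval, -1.89 to -1.36, still lay past 2-fold. The intervals of both genes do not overlap, and the level of *Smpd1* was 12.4 times that of *Smpd3* with AAV-GFP and 23.2 times with AAV-Wee1-AS.

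The lower total of *Smpd3* was not shared by all of its transcripts. XM_030243702 had 281 counts with AAV-GFP and 305 with AAV-Wee1-AS, a log2 ratio of 0.38 (0.14 to 0.62), so this transcript was not lower. XM_011248462 had 520 and 0 counts, at least 144-fold lower against a floor of 3 counts in the AAV-Wee1-AS library, and XM_011248463 had 245 and 0, at least 68.0-fold lower. XM_006531241 had 43 and 0 counts and the curated NM_021491 had 41 and 0, at least 11.9-fold and 11.4-fold lower. These bounds leave out the error of the AAV-GFP count, and the counting intervals, which include it, ended at log2 ratios of -6.87, -5.78, -3.22 and -3.15 in the same order. These 4 transcripts held 849 counts, 75.1% of the gene, with AAV-GFP. The 5 transcripts are between 4994 and 5125 bases long, and the counts are estimates that divide reads among them, and how those reads were divided was not tested. The lncRNA *4930506A18Rik*, which overlaps *Smpd3*, had 0 and 6 counts.

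Ordered by TPM, the 10 genes ran *Cers2*, *Smpd1*, *Degs1*, *Sptlc1*, *Smpd3*, *Sptlc2*, *Cers5*, *Cers6*, *Cers4* and *Degs2* with AAV-GFP. With AAV-Wee1-AS the order was *Cers2*, *Degs1*, *Smpd1*, *Sptlc1*, *Sptlc2*, *Cers6*, *Smpd3*, *Cers5*, *Cers4* and *Degs2*. The neighbours whose counting intervals overlapped were *Cers5* and *Cers6* with AAV-GFP, and *Smpd3* and *Cers5* with AAV-Wee1-AS. The exchanged places were those of *Degs1* with *Smpd1*, of *Smpd3* with *Sptlc2* and *Cers6*, and of *Cers5* with *Cers6*. Among the 9 tested genes, the interval of the log2 ratio included 0 for *Cers5*, and with each count halved for *Cers5* and *Cers4*. The share of all genes with such an interval was not computed, so this does not set the 9 genes apart.

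The GC content of the longest transcript differed among the genes and moved with the ratio. *Cers4* (43.5%), *Cers6* (44.7%) and *Sptlc2* (45.3%), the 3 genes above 0, had the lowest GC content of the 9, and *Smpd1* (55.7%) and *Smpd3* (55.8%), the lowest in log2 ratio, had the highest. For *Cers6* the median of all genes in the same decile of GC content was 0.72, below its own 1.14, and for *Smpd3* it was -0.61, above its own -1.62. *Smpd1*, at -0.72, was close to the same median of -0.61. *Sptlc1*, *Degs1* and *Cers5*, with log2 ratios between -0.37 and -0.18, shared a decile whose median was 0.48, so they were below the median of genes of like GC content. In that decile 27.7% of genes were past 2-fold higher and 3.77% past 2-fold lower. With the GC trend removed, *Smpd3* was at -1.07, *Cers6* at 0.32, *Degs1* at -0.82, *Sptlc1* at -0.73, *Sptlc2* at -0.28 and *Cers4* at -0.58, and 8 of the 9 were below 0. With the trend against transcript length removed as well, all 9 were below 0: *Smpd3* was at -1.34, *Cers4* at -1.13, *Sptlc2* at -0.65, *Cers6* at -0.09, *Smpd1* at -0.08 and *Cers2* at -0.01, the last 3 close to 0. The median of all genes was -0.02 with the GC trend removed and -5.24e-05 with both removed. Values with a trend removed carry no counting interval, and the share of all genes below 0 was not computed for them.

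**Figure D4:**
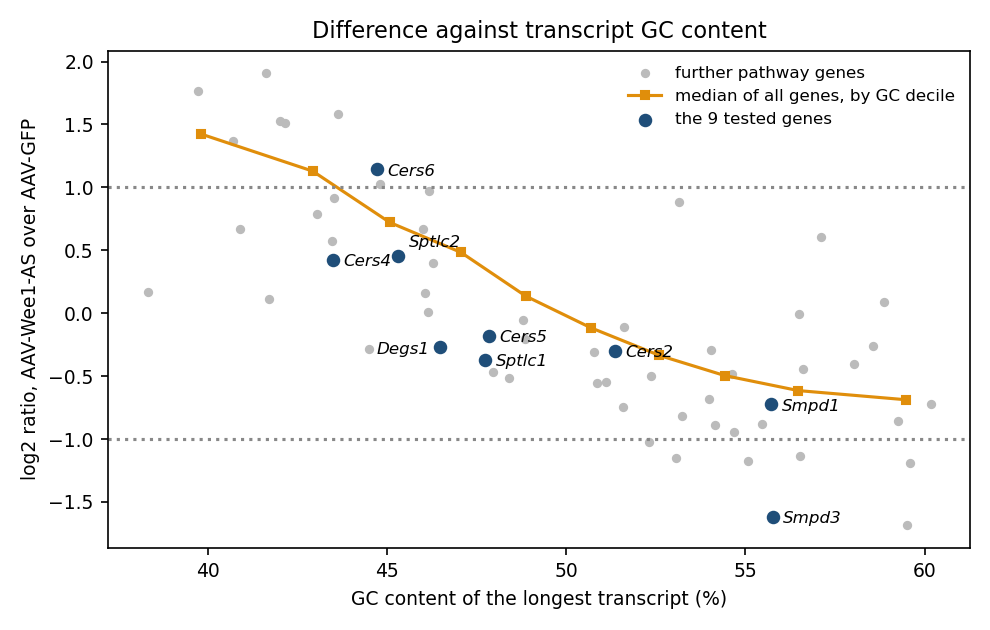
Log2 ratio of AAV-Wee1-AS over AAV-GFP against the GC content of the longest transcript in percent, for the 9 tested genes (blue), the further pathway genes (grey) and, as an orange line, the median of all genes in each decile of GC content. The line goes from 1.43 to -0.69, with *Smpd3*, at -1.62, below it and *Cers6*, at 1.14, above it.

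The rest of the pathway was read from 59 further genes in fixed lists. Of these, 51 were tested, 21 were above 0 and 30 below, and the median log2 ratio was -0.26, close to that of the 9 genes. Past 2-fold were 7 higher and 6 lower, 13.7% and 11.8% of those tested, against the 22.2% and 8.71% of all genes. The 7 that were higher had transcripts of 39.7% to 44.8% GC, and the 6 that were lower 52.3% to 59.6%. With the GC trend removed, 6 of the further genes were past 2-fold, of which *Gal3st1*, at -1.01, was the only one of these 13. With GC and length trends removed, 5 were past it and 0 of the 13 were among them, with *Sgms2* at -0.03 and *Asah2* at -0.09. Those 5, chosen after their values were seen, were *St3gal5* (1.35) and *S1pr5* (1.31), higher, and *Kdsr* (-1.34), *Acer3* (-1.30) and *Galc* (-1.27), lower.

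The list of sphingomyelin synthesis and ceramide transfer held 3 of the 7 higher genes, or 3 of its 6 tested genes where 22.2% of all genes were past 2-fold higher, at a median GC content of 44.2%. *Sgms2*, a sphingomyelin synthase of the plasma membrane, had 1182 counts with AAV-GFP and 2003 with AAV-Wee1-AS (log2 ratio 1.02, 0.92 to 1.13). *Samd8*, which encodes a relative that makes ceramide phosphoethanolamine, had 253 and 795 (1.91, 1.71 to 2.13), and *Col4a3bp*, now *Cert1*, the carrier of ceramide from the endoplasmic reticulum to the Golgi, had 462 and 1112 (1.53, 1.37 to 1.69). The median of the 6 genes in that list was 0.97, with 0 past 2-fold lower, and its gene with the highest mean TPM, the ceramide-1-phosphate carrier *Cptp*, had 1185 and 672 counts (-0.55, -0.69 to -0.42). With the GC trend removed the median was 0.06, *Samd8* was at 0.67, *Col4a3bp* at 0.33 and *Sgms2* at 0.21. *Sgms2* was past 2-fold in 3 of 11 alternatives. It was at 0.97 on library totals, 0.998 with DESeq2 size factors and 0.82 under upper quartile scaling. Of the list of other sphingomyelinases and related enzymes, 5 were tested and 0 were past 2-fold in either direction, against 31.0% of all genes, with a median of -0.30, or -0.01 with the GC trend removed, and the most abundant, *Smpdl3a*, which encodes a relative of acid sphingomyelinase that acts on nucleotides, had 2428 and 2263 counts (0.16, 0.08 to 0.25), a sign that turned under upper quartile scaling (-0.04) and with the GC trend removed (-0.46).

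Ceramide is removed by ceramidases and by ceramide kinase. Of 4 ceramidase genes tested, 1 was past 2-fold higher, against 22.2% of all genes, and the median was 0.62, or -0.53 with the GC trend removed. That gene was *Asah2*, the neutral ceramidase, with 505 and 1202 counts (1.51, 1.36 to 1.67), and the acid ceramidase *Asah1* had 1143 and 1416 (0.57, 0.46 to 0.69). With the GC trend removed they were at 0.33 and -0.44. Of 12 genes of ceramide kinase and sphingosine-1-phosphate tested, 0 were past 2-fold higher, against 22.2% of all genes, and 2 (16.7%) past 2-fold lower, against 8.71%, with a median of -0.33, or -0.22 with the GC trend removed. Those were the sphingosine kinase *Sphk1*, with 33 and 11 counts (-1.19, -2.45 to -0.30), and the sphingosine-1-phosphate exporter *Mfsd2b*, with 12 and 4 (-1.02, -3.41 to 0.40), both at low counts. With each count halved the *Sphk1* interval included 0, at -2.87 to 0.17. Both were within 2-fold with the GC trend removed (-0.51 and -0.75). On FPKM with a pseudocount of 1 they were at -0.11 and -0.05. Their FPKM, 0.140 and 0.0540 for *Sphk1* and 0.0586 and 0.0200 for *Mfsd2b*, lay far below the pseudocount, which drew these ratios toward 0. The gene of that list with the highest mean TPM was *Sgpl1*, the lyase that ends the pathway, with 4032 and 2913 counts (-0.21, -0.27 to -0.14), or 0.10 when 1 transcript per gene was kept.

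In glycosphingolipid synthesis, 7 genes were tested, with a median of -0.68, or -0.03 with the GC trend removed. Past 2-fold were 1 higher (14.3%, against 22.2% of all genes) and 2 lower (28.6%, against 8.71%). *Ugcg*, the glucosylceramide synthase, had 202 counts with AAV-GFP and 508 with AAV-Wee1-AS (1.58, 1.36 to 1.84), and was past 2-fold higher. It was within 2-fold with the GC trend removed (0.60) and on FPKM with a pseudocount of 1 (0.91), at 0.838 and 2.46 FPKM. *Gal3st1*, which sulfates galactosylceramide, had 468 and 120 (-1.68, -2.0 to -1.41), and *A4galt*, which makes globotriaosylceramide, had 32 and 11 (-1.15, -2.41 to -0.25), both past 2-fold lower. *Gal3st1* was at -0.72 when 1 transcript per gene was kept. *A4galt*, at low counts, ranged from -3.97 with 1 transcript per gene to -0.19 on FPKM with a pseudocount of 1. It was within 2-fold also on TPM with that pseudocount (-0.33), with halved counts (-0.95) and with the GC trend removed (-0.81). Its FPKM, 0.239 and 0.0855, lay below the pseudocount, which drew the FPKM ratio toward 0. *St3gal5*, the GM3 synthase and the gene of the list with the highest mean TPM, had 5176 and 7941 counts (0.88, 0.83 to 0.93). The lysosomal genes of glycosphingolipid breakdown were below 0 for 8 of 11, where 8010 of 15857 genes were, with a median of -0.52, or -0.47 with the GC trend removed. Of the 11, 0 were past 2-fold higher, against 22.2% of all genes, and 2 (18.2%) past 2-fold lower, against 8.71%. *Gba2* in that list acts outside the lysosome, and the lysosomal *Smpd1* and *Asah1* are described with their own enzymes above. *Hexa*, a subunit of beta-hexosaminidase, had 10479 and 3869 counts (-1.17, -1.23 to -1.12), and *Arsa*, arylsulfatase A, had 8245 and 3133 (-1.13, -1.19 to -1.07). With the GC trend removed *Hexa* was at -0.67 and *Arsa* at -0.55, both within 2-fold. *Psap*, the precursor of the saposins that present sphingolipids to these hydrolases, had 70169 and 30339 counts, 805 and 410 TPM (-0.95, -0.97 to -0.93), and -5.44 when only its most abundant transcript was kept.

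**Figure D5:**
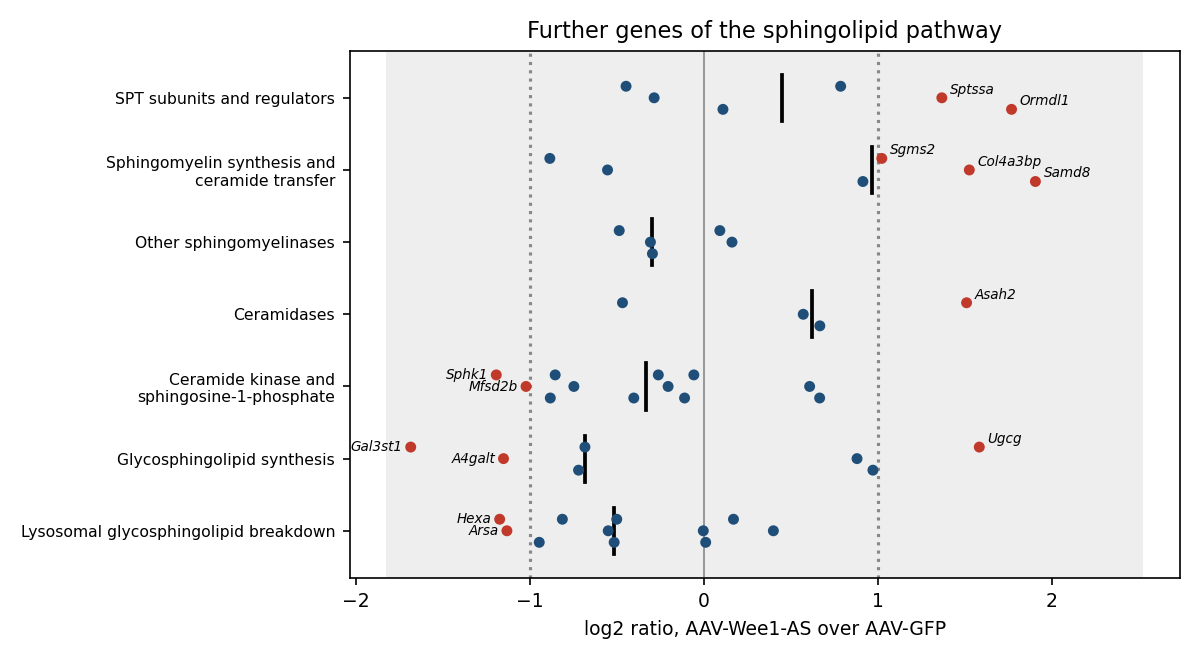
Log2 ratio of AAV-Wee1-AS over AAV-GFP for the tested genes of 7 further sphingolipid lists, 1 point per gene, with the median of each list as a black bar, the middle 95% of all genes in grey and genes past 2-fold named in red. The median is highest for sphingomyelin synthesis and ceramide transfer, at 0.97, and lowest for glycosphingolipid synthesis, at -0.68; with the GC trend removed these are 0.06 and -0.03, and the ceramidases are lowest, at -0.53.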

How the data were processed

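Poly(A) RNA of mouse liver was sequenced as 2 stranded paired-end libraries of 100-base reads. According to the submitters' processing notes, the tools were Trimmomatic 0.38, HISAT2 2.1.0, SAMtools 1.9 and StringTie 2.1.3b on mm10. The authors deposited estimated counts, FPKM and TPM for 129299 RefSeq transcripts. The deposited counts are whole numbers that equal FPKM times length over a constant per library within 1 count for 99.1% (AAV-GFP) and 99.2% (AAV-Wee1-AS) of transcripts with counts, and whether both mates of a pair count was not given in the sources used here. Counts were summed by symbol, rounding not being needed, and scaled by TMM over all genes in edgeR 4.0.16 (R 4.3.3), with factors of 1.02 (AAV-GFP) and 0.980 (AAV-Wee1-AS). Ratios carry a prior count of 2, and a gene was compared when either library held 10 or more counts. "Tested" means compared in this way; with 1 library per group no model could be fitted and no p-value was computed. Past 2-fold means a ratio above 2 or below 0.5. Intervals of ratios and shares are exact binomial (Clopper-Pearson) and those of TPM exact Poisson, at 95%. The floor was 3 counts, and reads have no molecular identifiers, so floors and intervals cover counting error only. GC content and length came from the longest GENCODE M21 transcript, and their trends were removed by lowess (span 0.3; statsmodels 0.14.6, Python 3.11.15). Alternatives used DESeq2 1.42.0 size factors, library totals, upper quartile scaling, totals without the 20 most abundant genes, a prior count of 0.5, FPKM or TPM with a pseudocount of 1, 1 transcript per gene, other count filters, both trends, and halved counts, the last chosen after seeing the data. Named were all 10 genes, their transcripts with at least 10% of a gene's counts, and, from each list, genes past 2-fold and the gene with the highest mean TPM; other genes and transcripts (*Cers1*, *Cers3*, *Fa2h*, overlapping genes, markers, the low *Smpd3*, *Sptlc1* and *Cers2* transcripts) were named after their values were seen. The 10 genes and the lists were chosen with earlier results of these data known. Scripts were tested on simulated data.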

Additional observations from a re-analysis of the deposited data

How the results depend on the processing

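With 1 library per group no replicate could be left out, and differences between animals cannot be told apart from the treatment. No paired analysis was possible because each group has a single library. Of the 10 genes, 2 were past 2-fold, and 1 was under upper quartile scaling, FPKM or TPM with a pseudocount of 1, 1 transcript per gene, and with the GC trend removed. With GC and length trends removed it was 2, *Smpd3* and *Cers4*, both lower. *Cers4* had 113 and 127 counts, and the trends used a transcript of 9475 bases where most of its counts were on 1 of 3668 bases. Of the further pathway genes, 13 were past 2-fold, against 7 on FPKM with a pseudocount of 1, all 7 among the 13. The number was 6 with the GC trend removed, of which 1 (*Gal3st1*) was among the 13, and 5 with both removed, of which 0 were. It was 17 under upper quartile scaling, 12 of them among the 13, and 14 with 1 transcript per gene, again 12 of them. Of 319 values of named genes under alternatives, 16 changed sign, in 10 genes, 13 of them with a trend removed. With the GC trend removed these were *Sptlc2* (-0.28), *Cers4* (-0.58), *Ormdl3* (0.14), *Smpdl3a* (-0.46) and *Asah1* (-0.44). With both trends removed they were *Sptlc2* (-0.65), *Cers4* (-1.13), *Cers6* (-0.0875), *Ormdl3* (0.25), *Sgms2* (-0.0321), *Smpdl3a* (-0.24), *Asah1* (-0.25) and *Asah2* (-0.0905). With 1 transcript per gene they were *Smpd3* (0.38), where XM_030243702 was the transcript kept, and *Sgpl1* (0.10), and under upper quartile scaling *Smpdl3a* (-0.0442). The cause was not tested. *Smpd3* was otherwise between -1.83 and -1.07. Of the other values, 202 stayed within the counting interval and 101 moved outside it without a change of sign. Upper quartile scaling put the median of all genes at -0.22, and calls were then 2938 higher and 2232 lower against 3527 and 1381. Calls were 1029 and 307 on FPKM with a pseudocount of 1, 1361 and 1365 with the GC trend removed and 1115 and 1293 with both removed. The medians of the 9 and of the 51 genes stayed below 0 under the alternatives run for them, which did not include halved counts.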
